A study of Mus musculus with 3 samples.

Results

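Coated vesicles carry cargo between the membranes of a cell, and 114 of the 41743 gene symbols in the deposited tables encode their coats, adaptors and sorting machinery. The genes were taken by a pattern of gene names: subunits of the COPI, COPII and clathrin coats (25 genes), subunits of the adaptor complexes AP-1 to AP-4 (24), genes named Vps for vacuolar protein sorting (35) and sorting nexins (30). All 3 libraries are RIP-seq, sequencing of RNA that comes down with an antibody, from K7M2 cells, a mouse osteosarcoma line. An anti-ezrin antibody gave 2 libraries (ezrin replicates 1 and 2) and normal mouse IgG gave 1, which is the background of the precipitation. Every library came from untreated cells of the same genotype, Ezrin -/- by CRISPR/Cas9 and stably transfected with Ezrin T567A, so the IgG cells carry the deletion and the mutant transgene too. Ezrin links the plasma membrane to actin, and T567A removes a phosphorylation site that opens the protein. By its title, the study addressed RNA bound by ezrin in its closed form. No input library, wild-type cells or further clones were analysed here, so each difference is between precipitates, and a message that binds more cannot be told apart from one that the precipitation recovers more. Whether the pair of ezrin libraries stems from separate cultures is not stated in the labels. The p-values and standard errors (SE) rest on the spread between those 2 libraries, pooled over genes, which may be technical. IgG, with 1 library, adds no spread, so neither value measures how well a single gene's own libraries agree.

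COPI, or coatomer, coats vesicles that return from the Golgi to the endoplasmic reticulum and move within the Golgi. COPII coats vesicles that leave the endoplasmic reticulum, and clathrin, with AP-1, AP-2 or other adaptors, coats vesicles at the Golgi, the endosomes and the plasma membrane. Retromer and many sorting nexins retrieve cargo from endosomes, HOPS and CORVET tether endosomes and lysosomes, GARP and EARP tether vesicles that return to the Golgi or recycle, and ESCRT proteins bud membrane into endosomes.

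Counts totalled 19676595 and 16196329 in ezrin replicates 1 and 2, against 10124580 in the IgG library. The ezrin antibody's own target message, Ezr, was at 349 and 350.5 CPM (counts scaled to library size, comparable between libraries), against 155 CPM in IgG, with transgene and gene not separable. Of 9 osteoblast-lineage markers, Col1a1, Col1a2, Spp1 and Runx2 had at least 584 counts in every library. Alpl had 28, 17 and 33, and Sp7, Ibsp, Bglap and Bglap2 had 5 or fewer, so the labelled osteoblast type rests on the matrix genes and Runx2. Of the macrophage, endothelial and epithelial markers, Csf1r reached 140.1, 129.8 and 138.7 RPKM (reads scaled to transcript length and library size) and was not called, and Ptprc, Adgre1 and Epcam were at 0 in all libraries. Each of the others had 16 or fewer counts in every library.

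The messages of vesicle coats and sorting machinery took a larger share of the ezrin libraries. They made up 1.244% (95% exact interval 1.239 to 1.248) and 1.299% (1.293 to 1.304) of all counts in ezrin replicates 1 and 2, against 0.7785% (0.7731 to 0.784) in IgG. Protein-coding genes held 97.0% and 97.5% of the ezrin counts and 74.1% of the IgG counts. Within protein-coding counts alone the shares were 1.281% and 1.331%, against 1.05% in IgG. The intervals cover counting error only.

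Of the 114 genes, 110 had enough counts to be tested. In edgeR's quasi-likelihood test, adjusted by Benjamini-Hochberg over all 12478 genes tested and read at 0.05, 45 were higher in the ezrin libraries, 11 were lower and 54 were not called. That is 40.9% higher and 10.0% lower, against 19.0% higher and 17.4% lower among all genes tested, and 20.5% and 15.7% among protein-coding genes. At least 2-fold, 17 were higher and 3 lower, against 9.83% and 9.54% of all genes tested. Their median log2 fold was 0.41, against −0.02 for all genes tested. In 71 of the 110 both ezrin libraries lay above IgG, against 42.6% of all genes tested, in 28 both lay below, and in 11 they lay on opposite sides. All 56 called genes had both ezrin libraries on the called side, which the call itself makes likely, so it is no separate support. Other settings moved both the set and all genes. With library size as the only scaling 50 of the set were higher and 4 lower (all genes 23.0% and 14.1%), and without the filter on low counts 47 and 3 (15% and 10.8%). With DESeq2 the split was 34 and 2 (all genes 14.0% and 8.82%), and with limma on RPKM 55 and 2 (29.9% and 7.73%). With genes under a mean of 10 CPM left out it was 40 and 12 (21.4% and 21.7%), and after cyclic loess 36 and 11 (16.9% and 17.8%).

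Among coats 15 of 25 genes were higher and 0 lower, with a median log2 fold of 0.77 (0.74 and 0.79 as plain log2 ratios in ezrin replicates 1 and 2). Among adaptors 10 of 22 tested were higher and 4 lower (median 0.32), and among Vps genes 13 of 35 were higher and 3 lower (median 0.46). Among sorting nexins 7 of 28 tested were higher and 4 lower, with a median of 0.14, which was −0.00325 after cyclic loess. Shares higher and lower were 60% and 0% for coats, 45.5% and 18.2% for adaptors, and 37.1% and 8.57% for Vps genes. Sorting nexins had 25% and 14.3%, against 19.0% and 17.4% of all genes tested. The differences between the classes were not tested. At a mean of at least 10 CPM and after cyclic loess 2 coat genes, Arcn1 and Sec24a, were called lower.

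**Figure D1:**
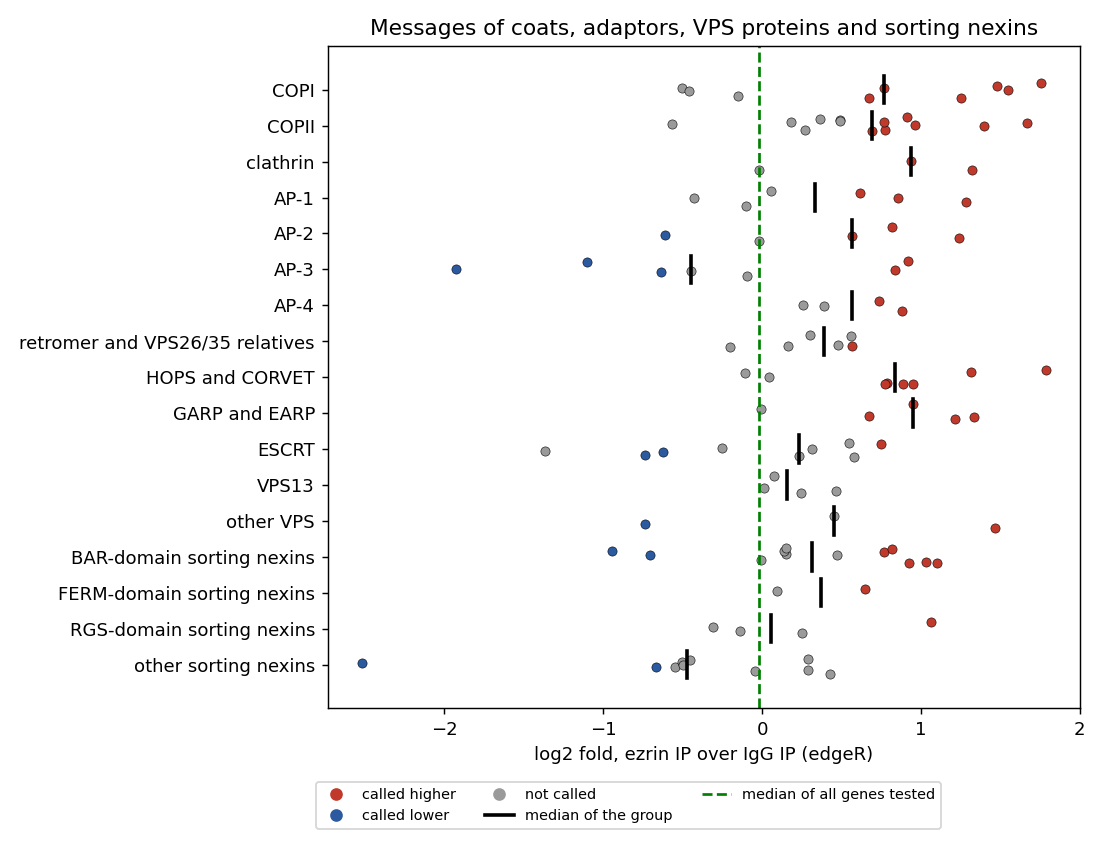
Each point is 1 tested gene, with its log2 fold of ezrin IP over IgG IP on the x axis and its complex on the y axis. Red points were called higher, blue lower and grey not called, the black bar is the median of the complex, and the dashed line is the median of all genes tested (−0.02). HOPS and CORVET, GARP and EARP, COPI and clathrin have medians between 0.77 and 0.95, and AP-3 and the other sorting nexins have medians below the dashed line.

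Calls also varied with how abundant a message was, across all genes. Of genes with a mean of 100 to 300 CPM, 34.8% were called higher, and 17 of the 29 genes of the coat and sorting set at that level were. Of genes at 300 CPM and over, 49.9% were called higher, against 5 of 7 of the set. Between 30 and 100 CPM the shares were 23.5% of all genes and 17 of 48 of the set, and under 10 CPM 5.21% and 1 of 11. The median log2 fold at 100 to 300 CPM was 0.61 for the set and 0.25 for all genes. The mean was taken over all 3 libraries, 2 of them ezrin, so a gene higher in ezrin also moves to a higher mean. The part of abundance in the calls of single genes was not tested.

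**Figure D2:**
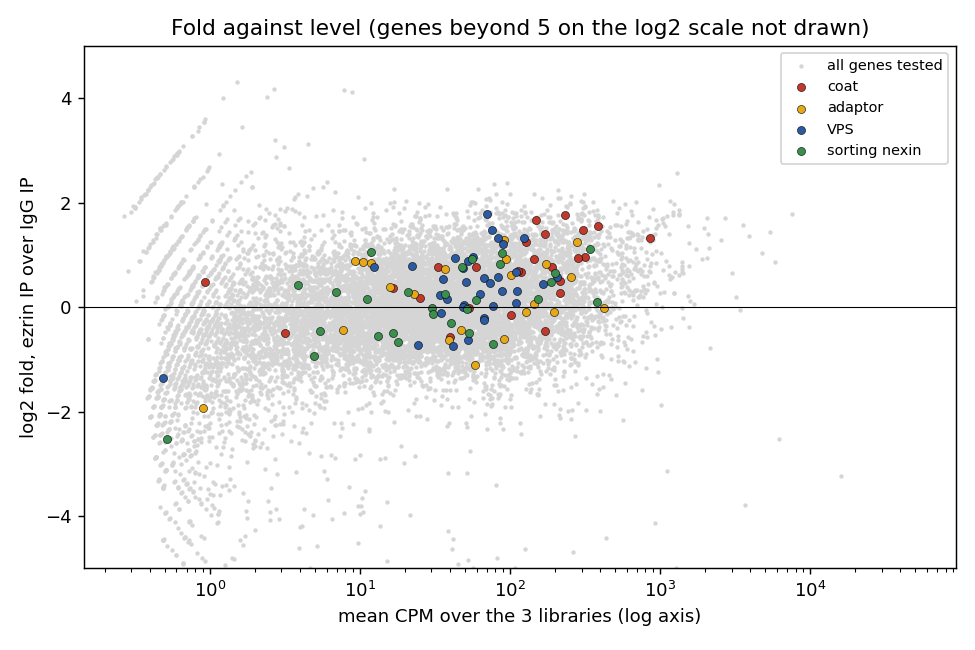
The x axis is the mean CPM over the 3 libraries (log axis) and the y axis the log2 fold of ezrin IP over IgG IP. Grey points are all 12478 genes tested and coloured points the 110 tested genes of the set by class. The median fold of all genes goes from −0.35 under 10 CPM to 0.53 at 300 CPM and over, and 3 points of the set lie below −1.3 at under 1 CPM.

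Start-site sequence was searched for short motifs of factors that drive genes of the secretory and lysosomal systems, as context for the members that led their groups. RIP counts do not measure transcription. The CLEAR core TCACGTGA, the palindrome bound by TFEB and its relatives, was in the 250 bases before the start of 4 of the 88 genes of the set with a RefSeq window (4.55%), against 245 of 27025 of all genes with one (0.907%). All genes with a window, the background for each motif, were not limited to protein-coding or tested genes, whereas the set is all protein-coding. Higher and uncalled genes held the CLEAR core at near shares, 2 of 36 (5.56%) and 2 of 43 (4.65%). The 4 genes were Vps16 and Sec23ip, both among the 3 highest log2 folds of the set, and Vps33a and Vps26a, neither of which was called. The stretches of 100 bases from RefSeq (GRCm38.p6) are shown to set those 4 genes side by side, with the core in capitals, for Sec23ip at chr7:128744770-128744869 (plus strand), Vps16 at chr2:130424220-130424319 (plus), Vps33a at chr5:123573016-123573115 (minus) and Vps26a at chr10:62486935-62487034 (minus).
Sec23ip: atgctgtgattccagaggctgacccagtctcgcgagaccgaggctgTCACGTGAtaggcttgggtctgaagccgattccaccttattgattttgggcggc
Vps16: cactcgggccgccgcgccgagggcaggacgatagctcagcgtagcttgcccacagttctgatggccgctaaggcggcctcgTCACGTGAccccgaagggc
Vps33a: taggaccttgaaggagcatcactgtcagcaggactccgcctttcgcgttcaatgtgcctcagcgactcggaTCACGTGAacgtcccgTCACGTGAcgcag
Vps26a: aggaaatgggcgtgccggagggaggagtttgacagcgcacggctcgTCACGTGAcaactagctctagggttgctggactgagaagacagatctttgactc
The core begins 19 bases before the start in Vps16 and 54 in Sec23ip. Vps33a has 2 copies in the stretch shown, and Vps26a has a second annotated start with a core of its own, not shown. The starts are those of the windows, and a gene's annotated span can reach further upstream. Vps33a reaches 123573043, within the stretch shown, so its 2 cores lie almost wholly inside that span. The unshown Vps26a core also lies inside its gene's span, which reaches 62486805. The core of the Golgi stress element, ACGTGGC on either strand, was in 8 of the 88 genes (9.09%), against 2.33% of all genes, and 7 of the 8 were not called. The endoplasmic reticulum stress element, CCAAT and CCACG with 9 bases of any kind between them, was in 0 of the 88 and in 0.13% of all genes. CCAAT alone, which that element contains, was in 31.8% of the 88 and 37.5% of all genes, again on either strand. Only the bases before the start were searched, and no match says only that these letters are not there.

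The COPI coat divided into subunits that were higher and subunits that did not pass. Copb2, which encodes the β′ subunit of the outer coat (chromosome 9, 98563731 to 98588375, GRCm38), was at 288 and 322 CPM in the ezrin libraries, against 90.4 CPM in IgG. Its level was 3.37-fold higher, or 1.75 on the log2 scale (SE 0.25, edgeR adjusted p = 2.2e-10). Copa, the α subunit that pairs with β′ and binds the dilysine tails of returning cargo (chromosome 1, 172082529 to 172122332), was at 478 and 518 CPM, against 170.1 CPM, and its log2 fold was 1.55 (SE 0.24, edgeR adjusted p = 4.8e-09). For both genes the ezrin libraries lay close together and far above IgG. Copg1, the γ subunit of the inner coat, was at 379 and 396 CPM, against 139 CPM (log2 fold 1.48), and Copb1, the β subunit, at 146 and 174 CPM, against 67.0 CPM (1.25). Copg2, the rarer γ paralog, had a log2 fold of 0.77, and Cope, the ε subunit that steadies α, one of 0.67. Cope did not pass after cyclic loess (adjusted p = 0.118), nor Copg2 with DESeq2 (adjusted p = 0.0775).

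The δ and ζ subunits, which sit in the inner coat with β and γ, were not called by edgeR. Arcn1, the δ subunit, was at 142 and 161 CPM, against 208 CPM in IgG, and both ezrin libraries lay below IgG (log2 fold −0.46, SE 0.23, edgeR adjusted p = 0.103). Its difference did pass, as lower, when genes under a mean of 10 CPM were left out (adjusted p = 0.0259), and so it did with cyclic loess scaling (adjusted p = 0.00841). Copz1, the main ζ subunit, was at 99.4 and 95.7 CPM, against 108 CPM (log2 fold −0.15, edgeR adjusted p = 0.654). Copz2, its paralog, was rare, with 54 and 49 counts, against 38 in IgG. Per length, the highest of the 7 subunits Copa, Copb1, Copb2, Arcn1, Cope, Copg1 and Copz1 exceeded the lowest 5.33-fold and 5.1-fold in RPKM in the ezrin libraries, against 2.46-fold in IgG. In the ezrin libraries Copa led at 42.5 and 47.4 RPKM and Arcn1 was lowest at 7.97 and 9.29 RPKM, whereas in IgG Copz1 led at 19.2 RPKM and Copb1 was lowest at 7.79 RPKM. Of 7 complexes compared this way, GARP (6.7-fold and 5.45-fold, against 2.67-fold) and AP-4 (6.42-fold and 5.59-fold, against 4.27-fold) also had the wider spread in the ezrin libraries. AP-1 (3.31-fold and 2.72-fold, against 6.39-fold) and AP-2 (2.75-fold and 2.47-fold, against 6.24-fold) had the narrower one. AP-3 (4.3-fold and 3.93-fold, against 4.61-fold) and retromer (4.89-fold and 5.31-fold, against 4.64-fold) lay close to IgG.

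**Figure D3:**
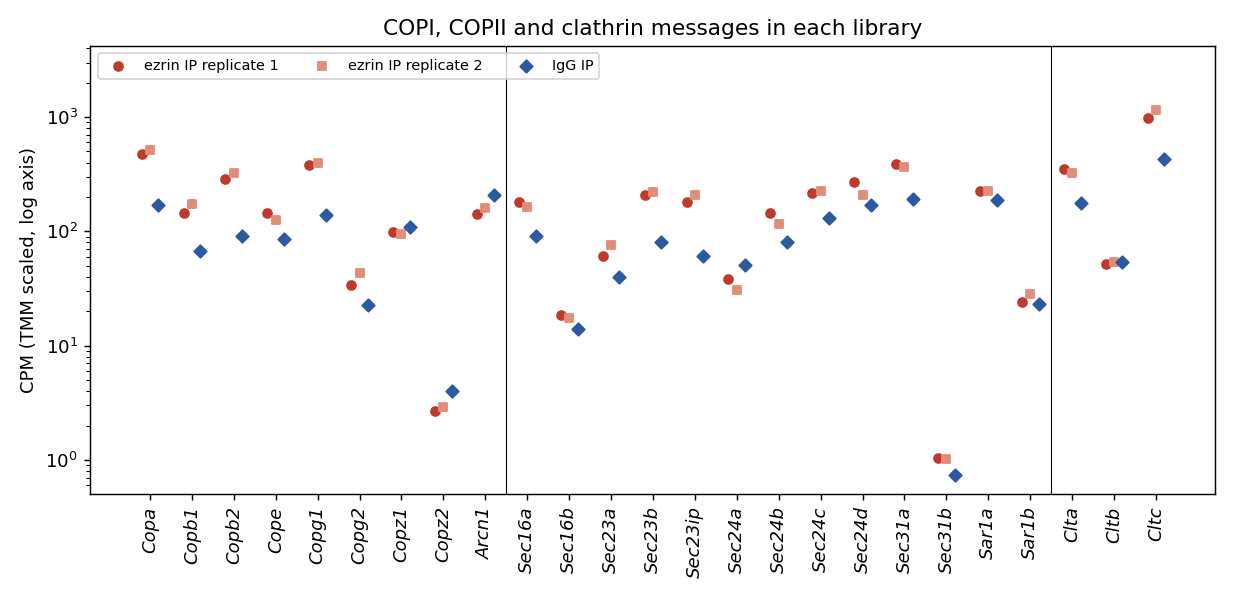
The y axis is CPM on a log axis and each gene of the COPI (left), COPII (middle) and clathrin (right) coats has 1 mark per library, ezrin IP replicate 1, ezrin IP replicate 2 and IgG IP. For Copa, Copb1, Copb2, Copg1, Sec23b, Sec23ip and Cltc the ezrin marks lie well above IgG, and for Arcn1, Copz1, Copz2 and Sec24a they lie below it.

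Among COPII genes 7 of 13 were higher and 0 lower (53.8% and 0%), against 19.0% and 17.4% of all genes tested. Their median level was 145 CPM, and of all genes at 100 to 300 CPM 34.8% were higher. Sec23ip, a phospholipase-like protein that binds Sec23 at exit sites of the endoplasmic reticulum (chromosome 7, 128744862 to 128784836), was at 180.5 and 206 CPM, against 60.8 CPM, and its log2 fold of 1.67 had an SE of 0.26 (edgeR adjusted p = 4.36e-09). Sec23b, an inner-coat subunit that activates the GTPase Sar1, was at 207 and 221 CPM, against 81.4 CPM (log2 fold 1.40). Its paralog Sec23a was at 60.6 and 76.5 CPM, against 40.0 CPM (0.78). The ezrin libraries lay above IgG for both paralogs, and the difference between the paralogs was not tested. Sec31a, the main outer-coat subunit, had a log2 fold of 0.97, and Sec16a, the scaffold of exit sites, one of 0.91. Their paralogs Sec31b, at 21 and 17 counts against 7, and Sec16b (log2 fold 0.37) did not pass.

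Of the 4 Sec24 paralogs, which pick the cargo of COPII vesicles, 2 were higher. Sec24c was at 218 and 226 CPM, against 130.2 CPM in IgG (log2 fold 0.77, edgeR adjusted p = 0.00635), and Sec24b at 145 and 115 CPM, against 80.4 CPM (0.69, edgeR adjusted p = 0.0172). Neither passed after cyclic loess (adjusted p = 0.0978 and 0.095). Sec24d was not called (0.49, edgeR adjusted p = 0.0902) but passed as higher with library size only (adjusted p = 0.0325) and with RPKM (adjusted p = 0.0154), and Sec24a was at 38.2 and 30.6 CPM, against 51.0 CPM (−0.57, edgeR adjusted p = 0.0566). Both ezrin libraries lay below IgG for Sec24a and above it for the other three. The GTPases that start the coat, Sar1a (0.27) and Sar1b (0.18), were not called, except Sar1a with RPKM (adjusted p = 0.0313).

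Clathrin's heavy chain Cltc was the most abundant message of the whole set by CPM, at 983 and 1160.1 CPM, against 429 CPM in IgG (chromosome 11, 86694352 to 86757567). Its log2 fold was 1.32 (SE 0.23, edgeR adjusted p = 1.54e-07). The light chain Clta was at 348 and 327 CPM, against 176 CPM (log2 fold 0.94, edgeR adjusted p = 5.31e-04). The other light chain, Cltb, was at 51.9 and 53.7 CPM, against 53.5 CPM, with no separation of the libraries (log2 fold −0.02, edgeR adjusted p = 0.96). Per length Clta led the set in the ezrin libraries, at 162 and 156 RPKM, against 63.4 RPKM.

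Each adaptor complex has a β subunit, another large subunit (γ, α, δ or ε), a medium μ subunit and a small σ subunit, and the genes were grouped this way after their values were seen. Of 5 β subunits 4 were higher and 1 lower, of 6 other large subunits 3 were higher and 0 lower, of 5 tested μ subunits 2 were higher and 0 lower, and of 6 tested σ subunits 1 was higher and 3 lower. The median log2 folds were 0.92, 0.41, 0.39 and −0.52 in that order. Among all genes tested 19.0% were higher and 17.4% lower, so the higher share of σ subunits, 1 of 6, lay near that of all genes. No test was made on these groups.

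**Figure D4:**
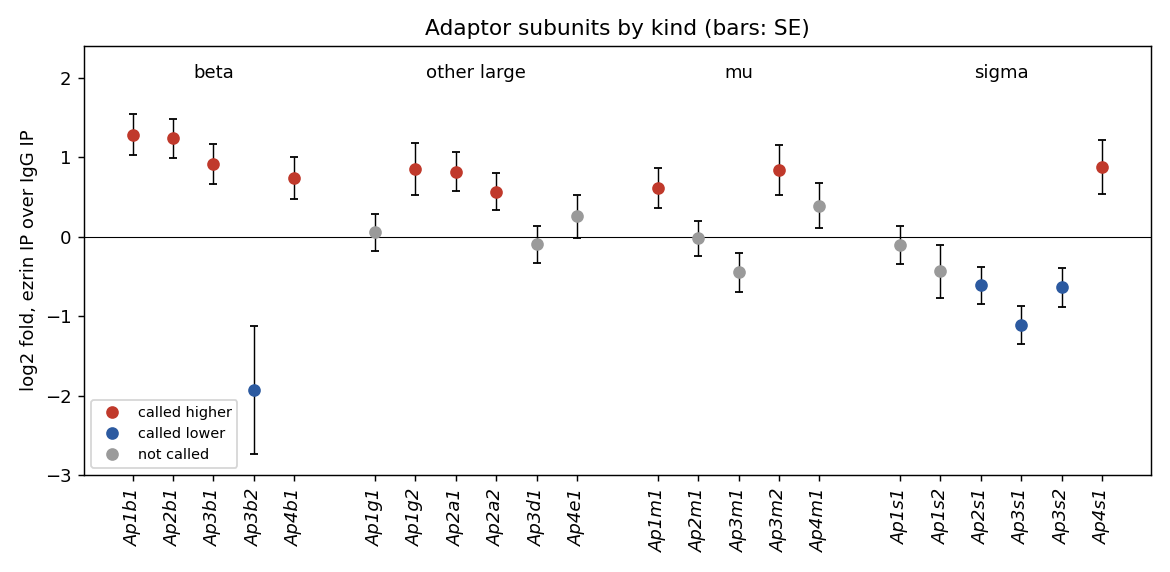
The y axis is the log2 fold of ezrin IP over IgG IP with its SE as a bar, and the tested adaptor genes stand in 4 groups by kind of subunit. Red points were called higher, blue lower and grey not called. The 4 abundant β subunits lie between 0.74 and 1.28, Ap3b2 lies at −1.92 with a long bar, and 5 of 6 σ subunits lie below 0.

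The abundant β subunits of the 4 complexes, which bind clathrin in AP-1 and AP-2, were all called higher. Ap2b1 (chromosome 11, 83298719 to 83405035) was at 337 and 351 CPM, against 146 CPM in IgG. Its log2 fold was 1.24 with an SE of 0.24 (edgeR adjusted p = 4.94e-06). Ap1b1 was at 132 and 96.9 CPM, against 47.0 CPM (log2 fold 1.28). Ap3b1 was at 108 and 115 CPM, against 59.0 CPM (0.92), and Ap4b1 at 39.2 and 45.8 CPM, against 25.5 CPM (0.74). In all 4 both ezrin libraries lay above IgG, as in every gene of the set called higher and in 42.6% of all genes tested. Ap4b1 did not pass with DESeq2 (adjusted p = 0.0704). Ap3b2, which in mammals belongs to the neuronal form of AP-3, had 9 and 8 counts, against 17, and its call as lower was lost in each of the 5 alternatives that tested it.

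Among the other large subunits, the AP-2 α paralogs Ap2a1 (log2 fold 0.82) and Ap2a2 (0.57) and the γ paralog Ap1g2 (0.85) were higher. Ap1g1 (0.05), Ap3d1 (−0.09) and Ap4e1 (0.26) were not called. Ap2a1 and Ap2a2 did not pass after cyclic loess (adjusted p = 0.0584 and 0.468), nor Ap2a2 with genes under a mean of 10 CPM left out (adjusted p = 0.0895). Ap1g2, with 283 and 175 counts against 65, did not pass with DESeq2 (adjusted p = 0.214). Of the μ subunits, which read tyrosine-based sorting signals, Ap1m1 (0.61) and Ap3m2 (0.84) were higher, though with DESeq2 neither passed (adjusted p = 0.059 and 0.181). Ap1m1 was also lost after cyclic loess (adjusted p = 0.151) and with genes under a mean of 10 CPM left out (adjusted p = 0.0713). Ap2m1, the most abundant adaptor message by CPM, was at 437 and 409 CPM, against 428 CPM (log2 fold −0.02, edgeR adjusted p = 0.957). Ap1m2, the epithelial μ of AP-1, had 0 counts in every library. On plain library totals, without TMM scaling, that allows up to 0.152 and 0.185 CPM in the ezrin libraries and 0.296 CPM in IgG. Ap3m1 (−0.45) and Ap4m1 (0.39) were not called.

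The σ subunits help the large subunits hold the core together, and 3 of them were lower. Ap3s1 was at 35.8 and 48.9 CPM in the ezrin libraries, against 91.0 CPM in IgG, a 2.15-fold lower level. Its log2 fold was −1.10 (SE 0.24, edgeR adjusted p = 3.9e-05), and of the 11 lower calls it alone passed under each of the 6 alternatives tested. Its paralog Ap3s2 was at 33.3 and 32.7 CPM, against 51.3 CPM (−0.64), and Ap2s1 at 90.5 and 64.1 CPM, against 118 CPM (−0.61). Both were lost with DESeq2, with library size as the only scaling, without the filter and with RPKM. Ap1s1 was at 132 and 117 CPM, against 133 CPM, and was not called (−0.10), nor was Ap1s2 (−0.43). Ap4s1 was higher (0.88) from 216 and 187 counts, against 57, and did not pass with DESeq2 (adjusted p = 0.208). Ap1s3 had 0, 0 and 1 counts and was not tested.

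The tethers HOPS and CORVET, and GARP and EARP, held the largest shares of higher genes among Vps complexes, with 6 of 8 (75%) and 4 of 5 (80%). Both had 0 lower. Among all genes tested 19.0% were higher and 17.4% lower. Vps16, a core subunit that HOPS and CORVET share and 1 of the 4 genes with a CLEAR core (chromosome 2, 130424320 to 130444269), was at 93.3 and 91.2 CPM in the ezrin libraries, against 26.8 CPM in IgG. Its 3.45-fold difference, or 1.79 on the log2 scale (SE 0.27, edgeR adjusted p = 1.76e-09), was the highest of the 110 tested genes. Vps11 (log2 fold 1.32) and Vps18 (0.89), also shared core subunits, were higher, and Vps33a, the Sec1-like protein of the same core, was at 49.19 and 50.02 CPM, against 48.1 CPM (0.05). Of the subunits particular to one complex, Vps41 of HOPS (0.95) and Vps8 of CORVET (0.79) were higher and Vps39 of HOPS was not called (−0.11). Vps33b (0.77), which acts in a related complex, was higher, with 286 and 246 counts, against 81, and is counted with them here. With DESeq2 neither Vps33b (adjusted p = 0.211) nor Vps8 (adjusted p = 0.0943) passed. Vps33b was also lost with genes under a mean of 10 CPM left out (adjusted p = 0.0672).

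GARP and EARP share Vps51, Vps52 and Vps53, and all 3 were higher. Vps52 (chromosome 17, 33955779 to 33967038) was at 159 and 152 CPM, against 61.7 CPM, and its log2 fold of 1.33 had an SE of 0.26 (edgeR adjusted p = 3.09e-06). Vps53 was at 105 and 119 CPM, against 48.2 CPM (1.21), and Vps51 at 144 and 106 CPM, against 78.6 CPM (0.67). Vps50, found only in EARP, was higher (0.95), and Vps54, found only in GARP, was at 44.9 and 52.8 CPM, against 49.0 CPM, with the ezrin libraries on both sides of IgG (−0.01). Vps51 did not pass after cyclic loess (adjusted p = 0.108) or with DESeq2 (adjusted p = 0.052).

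**Figure D5:**
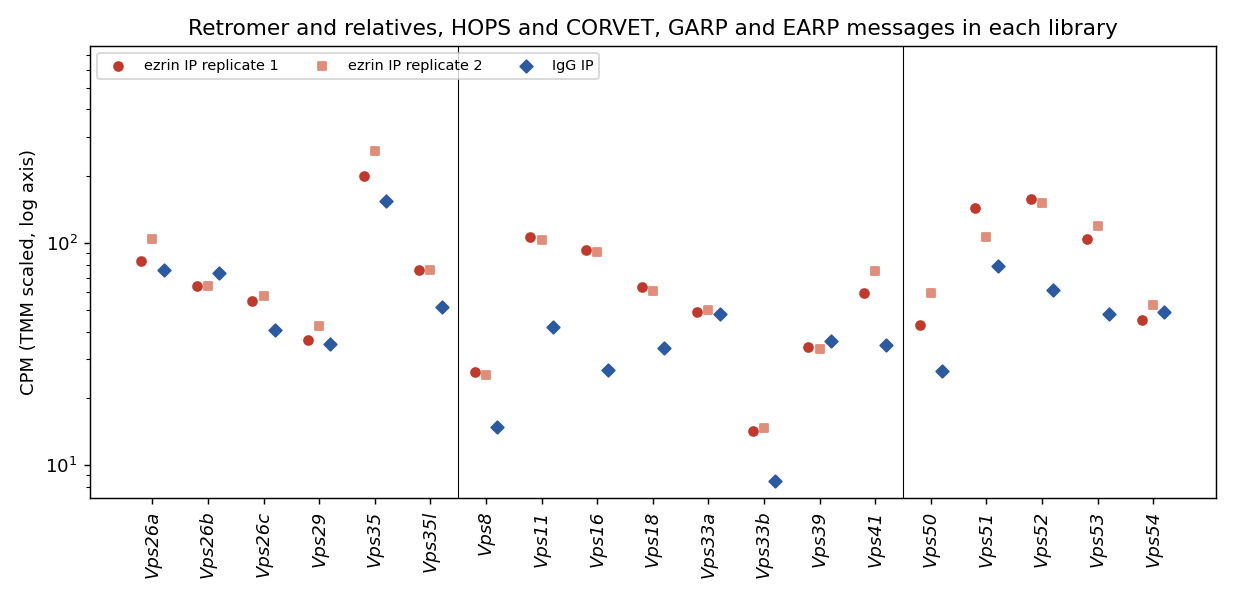
The y axis is CPM on a log axis, with retromer and its relatives (left), HOPS and CORVET (middle) and GARP and EARP (right), and 1 mark per library. Vps11, Vps16, Vps52 and Vps53 have both ezrin marks well above IgG, and for Vps33a and Vps54 the 3 marks lie together.

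Of retromer and its relatives 1 of 6 genes was called, as higher (16.7%, near the 19.0% of all genes tested). Vps35, the scaffold of retromer, was at 199.5 and 260.1 CPM, against 155 CPM, and passed narrowly (log2 fold 0.57, edgeR adjusted p = 0.048), but not after cyclic loess (adjusted p = 0.383), with DESeq2 (adjusted p = 0.0845) or with genes under a mean of 10 CPM left out (adjusted p = 0.0936). Vps26a (0.30), Vps26b (−0.20) and Vps29 (0.16) were not called, nor were Vps26c (0.48) and Vps35l (0.56) of the related retriever complex. Vps35l passed as higher without the filter (adjusted p = 0.0408), with library size only (adjusted p = 0.0248) and with RPKM (adjusted p = 0.027), and Vps26a and Vps26c passed with RPKM (adjusted p = 0.0421 and 0.0154). Among 9 ESCRT genes Vps28 was higher (0.75), and Vps37a (−0.74) and the ATPase Vps4a (−0.62) were lower. That is 11.1% higher and 22.2% lower, against 19.0% and 17.4% of all genes tested. Neither lower call passed with DESeq2 (adjusted p = 0.071 and 0.108) or with RPKM (adjusted p = 0.365 and 0.426). Vps4a was also lost with library size only (adjusted p = 0.0957) and without the filter (adjusted p = 0.0994). Its paralog Vps4b (0.58, edgeR adjusted p = 0.0545) was not called. Vps4b passed as higher without the filter (adjusted p = 0.0319), with library size only (adjusted p = 0.019) and with RPKM (adjusted p = 0.0196). Vps36, the most abundant ESCRT message here, was at 107 and 133.5 CPM, against 96.7 CPM, and was not called (0.31) except with RPKM (adjusted p = 0.0404). The ezrin libraries lay below IgG for Vps4a (41.4 and 47.5 CPM, against 68.5 CPM) and above it for Vps4b (83.9 and 104 CPM, against 63.1 CPM). The 4 Vps13 genes, which encode bridge-like lipid transfer proteins, had log2 folds from 0.01 to 0.46, and the smallest edgeR adjusted p among them was 0.131, for Vps13d. Vps13a, the most abundant of them, was at 93.6 and 128.5 CPM, against 105.5 CPM, with IgG between the ezrin libraries. Vps45, a Sec1-like protein for endosomal fusion, was at 86.2 and 107 CPM, against 34.9 CPM (1.47, edgeR adjusted p = 5.39e-07). Vps9d1 was lower (−0.73), a call lost with DESeq2 (adjusted p = 0.114), with RPKM (adjusted p = 0.347) and without the filter. Vps72, a chromatin protein that carries the name, was not called (0.45) except with RPKM (adjusted p = 0.0149).

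Sorting nexins bind phosphoinositides through a PX domain. Those that also bend membrane with a BAR domain, 12 of the 28 tested, held 5 of the 7 higher calls and 2 of the 4 lower. Their shares were 41.7% higher and 16.7% lower, against 19.0% and 17.4% of all genes tested. Snx9, which acts late in clathrin endocytosis (chromosome 17, 5841324 to 5931956), was at 418 and 411 CPM, against 193 CPM in IgG, and its log2 fold of 1.10 had an SE of 0.24 (edgeR adjusted p = 3.51e-05). Of its closest relatives, Snx18 was not called (0.47) but passed as higher with library size only (adjusted p = 0.04) and with RPKM (adjusted p = 0.0101). Snx33 was at 64.0 and 64.1 CPM, against 104 CPM, and lower (−0.71), a call lost with RPKM (adjusted p = 0.276). The endosomal tubule proteins Snx1 (1.03), Snx2 (0.76), Snx6 (0.82) and Snx4 (0.92) were higher, and Snx5 was not (0.15). Snx32 was lower (−0.95) from 78 and 62 counts, against 70 in the smaller IgG library, and its call was lost in each of the 5 alternatives that tested it.

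Snx17 and Snx27 carry a FERM domain, as ezrin does. Snx17, which returns integrins and other receptors to the surface, was at 230.3 and 227 CPM, against 146 CPM (log2 fold 0.65, edgeR adjusted p = 0.0229), and did not pass after cyclic loess (adjusted p = 0.243). Snx27, which couples cargo with a PDZ-binding tail to retromer, was at 359.9 and 418 CPM, against 365 CPM, with IgG between the ezrin libraries (0.09). In the group of 4 that holds Snx13, Snx14, Snx19 and Snx25, only Snx14 (1.06) was higher, and it did not pass with DESeq2 (adjusted p = 0.0795). Of the other 10 tested, 0 were higher, and Snx21 (−0.67) and Snx22, with 1, 6 and 11 counts, were lower. Their lower share of 20% lay near the 17.4% of all genes tested, of which 19.0% were higher. Snx21 had the largest gap between the ezrin libraries of any tested gene of the set, with log2 ratios of −0.36 and −0.98. Both calls were lost with DESeq2, with library size only and without the filter. Snx21 was also lost with RPKM, and Snx22 after cyclic loess. Snx12, the most abundant of these, was at 43.8 and 49.3 CPM, against 65.9 CPM, and was not called (−0.50), though it passed as lower with genes under a mean of 10 CPM left out (adjusted p = 0.032) and with cyclic loess scaling (adjusted p = 0.0491). Snx19, the most abundant of the group with Snx14, was not called (−0.31). Snx20 and Snx31 had 4 or fewer counts in each library and were not tested.

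Of 185 listed partners of these coats, 183 were in the tables and 178 were tested, of which 45 were higher and 21 lower (25.3% and 11.8%, against 19.0% and 17.4% of all genes tested), with a median log2 fold of 0.17. The p24 proteins and KDEL receptors, membrane proteins that ride in COPI and COPII vesicles, held 0 higher and 6 lower genes of 11, with a median of −0.61. Tmed5 was at 16.6 and 20.5 CPM, against 38.4 CPM in IgG (log2 fold −1.05, edgeR adjusted p = 2.21e-04), and Tmed7 at 68.5 and 65.0 CPM, against 135 CPM (−1.01, edgeR adjusted p = 1.23e-04). Tmed10 had a log2 fold of −0.82. All 3 are p24 proteins, and for each of them both ezrin libraries lay below IgG.

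Regulators of coat assembly had calls in both directions, with 19.0% of all genes tested higher and 17.4% lower. The shares higher and lower were 31.2% and 12.5% for Arf genes and regulators, and 25% and 18.8% for COPII cofactors and export receptors. For clathrin accessory genes they were 21.9% and 12.5%, with the higher share near that of all genes. Of 16 Arf genes and their regulators 5 were higher and 2 lower, led by the exchange factor Gbf1 (log2 fold 1.21) and the GAP Arfgap2 (1.20), both of COPI, while the GTPase Arf3 was at 284 and 302 CPM, against 937 CPM (−1.68, edgeR adjusted p = 1.73e-13). Of 16 COPII cofactors and export receptors 4 were higher, among them Sec13 (1.12), the partner of Sec31, and Tfg (1.03), and 3 were lower, led by the cargo receptor Cnih1 (−1.09). Of 32 tested clathrin accessory genes 7 were higher and 4 lower. The uncoating chaperone Hspa8 (1.28) and the fission GTPase Dnm2 (1.21) were higher and Sh3glb1 (−1.04), a membrane-bending endophilin, was lower.

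Among tethers outside the Vps names, of 18 conserved oligomeric Golgi complex and golgin genes 8 were higher and 0 lower, led by Cog6 (log2 fold 1.27), Cog2 (1.11) and Cog7 (1.10). Of 14 genes of TRAPP, a tether of the early secretory pathway, 4 were higher and 0 lower, with Trappc11 (1.54) and Trappc12 (1.30) in front. Of 22 WASH complex and retromer cofactor genes 5 were higher and 2 lower, led by Ccdc22 (1.82), Washc2 (1.40) and Commd4 (0.99), and of 19 tested ESCRT genes outside the Vps names 5 were higher and 1 lower, led by Chmp2a (1.17), Chmp5 (1.07) and Hgs (0.92). Of 30 SNARE and NSF genes 7 were higher and 3 lower, led by Nsf (1.34), Scfd1 (1.20) and Stx18 (1.09). Nsf is the ATPase that takes SNARE complexes apart. Shares higher and lower were 44.4% and 0% for the Golgi complex and golgin genes, and 28.6% and 0% for TRAPP. WASH and retromer cofactors had 22.7% and 9.09%, ESCRT genes 26.3% and 5.26%, and SNARE and NSF genes 23.3% and 10%. Among all genes tested 19.0% were higher and 17.4% lower, so the WASH and SNARE shares of higher genes lay near that.

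Over the 110 tested genes the log2 fold had a Spearman correlation of 0.42 with mean CPM and 0.10 with the gene length behind the RPKM, against 0.26 and −0.05 over all 12478 genes tested. These describe genes that share the same 3 libraries. Mean CPM is over those libraries, 2 of them ezrin, so a higher fold in part raises the mean itself. The 2 ezrin libraries differed by a median of 0.18 in the log2 ratio to their shared IgG library over the 110 genes, and by more than 0.5 in 1 of them.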

How the data were processed

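RNA recovered with anti-ezrin antibody (2 libraries) or normal mouse IgG (1 library) was depleted of ribosomal RNA and read as pairs of 150 bases, per the labels' protocols, although the molecule is labelled polyA RNA. Raw counts by gene symbol were deposited for each library beside RPKM, per the file headers. The genome build was GRCm38, per the submitters' processing notes, and the aligner, counter, annotation, strand use and treatment of multiply matching reads are not given in any source used. Without strand, overlapping and antisense genes cannot be told apart.

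The main test was edgeR 4.0.16 (R 4.3.3): TMM factors (1.02, 1.04, 0.946), filterByExpr, quasi-likelihood test and Benjamini-Hochberg adjustment over 12478 genes at 0.05. The fit has 1 residual degree of freedom and used the spread pooled over genes. For its lone library, IgG was taken to vary as the ezrin libraries do. SE is the size of the log2 fold over the square root of F. Plain ratios have 1 CPM added above and below. Tested on simulated data, edgeR called 99.6% of genes raised 4-fold, 49.2% of those raised 2-fold and 55.6% of those lowered 2-fold. The simulation gave every gene and library, IgG included, the same dispersion, and changed a small share of genes with ample counts. How these rates carry over to rarer genes, or to an IgG spread that differs, was not tested. Gene length came from count over RPKM, set on small RNA genes. Alternatives were 2 filters, 2 scalings, DESeq2 1.42.0, limma 3.58.1 on log2(RPKM + 1) and each ezrin library alone. Coordinates and start-site windows came from RefSeq on GRCm38.p6, which placed 114 of 114 genes.

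Genes were named by rule: the most abundant gene of each complex, all called genes, paralog pairs, and per partner list the 3 largest called folds. The members and lists were chosen with earlier results of these data known. They are described by counts and medians and were not tested as sets.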

Additional observations from a re-analysis of the deposited data

How the results depend on the processing

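Of 100 recomputed counts and medians, 59 stayed within 1.5 times the count or the spread between the ezrin libraries. Lower calls were the least stable. Over all genes of the set they numbered 3 without the filter, 4 with library size only, 2 with DESeq2 and 2 with RPKM, against 11. In the same order adaptors had 1, 1, 1 and 1 lower calls, and sorting nexins 1, 1, 1 and 1, while Vps genes had 1 without the filter, 0 with DESeq2 and 0 with RPKM. Coats had 2 lower calls at a mean of at least 10 CPM and 2 after cyclic loess. Higher adaptor calls fell to 5 with DESeq2, and Vps genes had 20 with RPKM, where 14.0% and 29.9% of all genes were higher, against 19.0% in the main test. Of the 45 higher calls 28 passed under all 6 alternatives, and of the 11 lower calls 1. The median of all genes tested was 0.07 without the filter, 0.10 with library size only and 0.22 with RPKM. Under these 3 the median log2 fold was 0.52, 0.53 and 0.61 for the set, 0.86, 0.89 and 1.01 for coats, and 0.56, 0.58 and 0.72 for Vps genes, and adaptors were at 0.47 with RPKM. Sorting nexins were at 0.26 with library size only, 0.43 with RPKM and −0.00325 after cyclic loess, where the sign turned. At a mean of at least 10 CPM the set, coats and Vps genes were at 0.36, 0.66 and 0.36, and after cyclic loess at 0.26, 0.59 and 0.28. With 1 ezrin library left out the medians ran from 0.336 to 0.4 for the set, 0.738 to 0.793 for coats, 0.221 to 0.399 for adaptors, 0.362 to 0.450 for Vps genes and 0.018 to 0.181 for sorting nexins. These are plain ratios with no test, since 1 library against 1 leaves no residual degree of freedom. The causes were not tested. No paired analysis was possible because the groups share 1 replicate number only. Genes under 25 counts in every library (4 tested) have too little depth for a firm value.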
